A study of Mus musculus with 12 samples.

Results

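A set of 7 surface and secreted genes of blood vessels were followed through mouse melanomas: Pecam1, Icam2, Emcn, Cd34, Podxl2, Mcam and Esm1. They were listed by name as endothelial markers and vessel-linked adhesion genes, and all 7 of 7 were found among the 909 named genes of the array, through the RefSeq accession in each probe set's name. Esm1 had 2 probe sets and the other 6 genes 1 each, so that 8 of 1246 probe sets were involved. The brightest probe set stood for each gene.

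RNA was taken from tumours grown in mice after injection of melanoma cells and read on 12 Affymetrix arrays, 3 in each of 4 groups. These were Tm1N3 tumours in Gal3 -/- mice (KO hosts), Tm1N3 tumours in wild-type mice (WT hosts), Tm1G3 tumours in KO hosts and Tm1G3 tumours in WT hosts. The labels give Tm1N3 as expressing galectin-3 and Tm1G3 as silenced for it, and the design text describes a melanoma line that had silenced the gene and was given a plasmid coding for it, grown in syngeneic mice. KO hosts lack galectin-3, a lectin that binds galactose-bearing glycans, but their tumours still hold injected melanoma cells with their own Lgals3 gene. No age, promoter, clone number or date is given in the sources used here, and the labels do not say that replicates were separate animals, so p-values measure the spread between these samples, which may be technical. Each title carries its own sample number, and every KO host sample has a lower number than any WT host sample. Host and the order of these numbers therefore cannot be told apart. Levels are log2 values after RMA (background correction, quantile normalization and probe summary) as the authors deposited them, so a difference of 1 is a doubling. Precision is limited by the 3 arrays of each group.

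The gene of the design did not settle the labels. Lgals3 had a log2 level of 9.86 ± 0.62 in Tm1N3 tumours of KO hosts, 9.97 ± 0.37 in Tm1N3 tumours of WT hosts, 9.31 ± 0.43 in Tm1G3 tumours of KO hosts and 9.61 ± 0.34 in Tm1G3 tumours of WT hosts (SD, n = 3 each). Its difference between lines, averaged over hosts, did not pass (0.46 ± 0.23, SE; limma, Benjamini-Hochberg adjusted p = 0.376). The sources used here do not give where its probes lie relative to the knockout or to a plasmid. Published accounts of lines with these names may assign galectin-3 the other way round, so the lines are called by name and not by galectin-3 status below.

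Endothelial cells line blood vessels and carry adhesion proteins of the immunoglobulin family, which hold neighbouring cells together and guide leukocytes through the wall, and sialomucins, proteins densely covered with sialic acid-bearing O-glycans. Such glycans can repel other cells or, when suitably fucosylated and sulfated, bind the selectins of leukocytes, platelets and endothelium. Growing tumours draw in vessels, so these genes are often read as signs of vessel content. In whole tumours, fewer endothelial cells and less RNA per cell cannot be told apart, and several of these genes are also used by other cells.

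Averaged over hosts, 3 of the 7 genes differed between the tumour lines. Icam2 fell in Tm1N3 tumours, to 0.40 below Tm1G3 tumours on the log2 scale, while Mcam and Podxl2 rose by 0.66 each. Pecam1, Emcn, Cd34 and Esm1 did not pass. A call means a limma p under 0.05 after Benjamini-Hochberg adjustment over the array. Of all 1246 probe sets 4.25% passed in this comparison, with 1.28% in the upward direction and 2.97% in the downward direction. The 7 genes were chosen with earlier results of these data known, so 3 of 7 beside this share is a description and not a test. The median difference of the 7 genes was 0.17 on the log2 scale, beside 0.0027 over all probe sets, and the median of their absolute differences was 0.23, beside 0.066. By mean level the 7 genes lay between percentiles 62.7 (Podxl2) and 93.5 (Mcam) of all probe sets. Probe sets of like level were not set beside them, so the part of level in this gap was not tested.

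**Figure D1:**
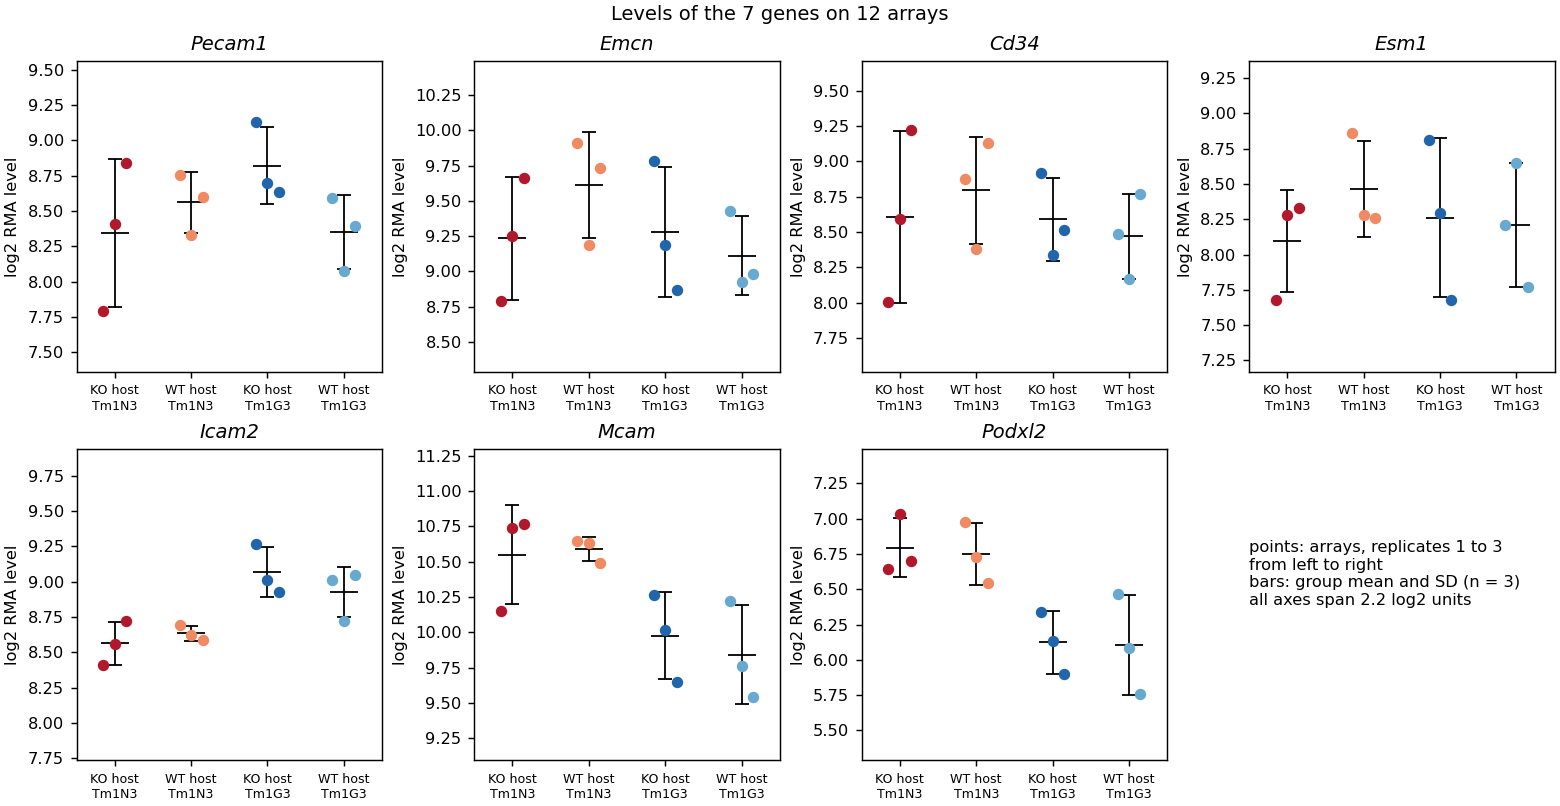
Log2 RMA level (vertical axes) of the 7 genes on each of the 12 arrays, by group (horizontal axes); points are arrays and bars the group mean with SD (n = 3). Icam2 lies lower, and Podxl2 higher, on all 6 Tm1N3 arrays than on any Tm1G3 array, while the Pecam1, Emcn, Cd34 and Esm1 groups overlap between lines.

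Pecam1, also called CD31, is an immunoglobulin-family protein of the junctions between endothelial cells that platelets and leukocytes carry too. Its log2 level was 7.79, 8.41 and 8.84 in Tm1N3 tumours of KO hosts and 8.75, 8.33 and 8.60 in Tm1N3 tumours of WT hosts. In Tm1G3 tumours it was 9.13, 8.70 and 8.63 in KO hosts and 8.59, 8.07 and 8.40 in WT hosts. The lines overlapped, and the lowest and the highest array both came from KO hosts. The averaged line difference was -0.13 with a 95% interval from -0.52 to 0.25 (limma, adjusted p = 0.827), so that neither a loss of this size nor a small gain could be told from 0. It turned to 0.0038 without KO_Tm1N3 replicate 1, the lowest array, and was -0.26 without KO_Tm1N3 replicate 3.

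Icam2, an immunoglobulin-family protein that resting endothelium displays to the integrins of leukocytes, and which leukocytes and platelets also carry, had the smallest SE of the 7 (0.082 for the line difference). It stood at 8.41, 8.56 and 8.72 in Tm1N3 tumours of KO hosts and at 8.69, 8.63 and 8.59 in Tm1N3 tumours of WT hosts. Tm1G3 tumours had 9.27, 9.01 and 8.93 in KO hosts and 9.01, 8.72 and 9.05 in WT hosts. All 6 Tm1N3 arrays were lower than all 6 Tm1G3 arrays, although at the boundary the values were 8.719 and 8.722. The lines lay apart in either direction for 3.29% of all probe sets and in this direction for 2.09%.

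The Icam2 level averaged 8.60 ± 0.11 in Tm1N3 tumours and 8.999 ± 0.18 in Tm1G3 tumours (SD, n = 6 each), a 1.32-fold lower level in Tm1N3 tumours. The log2 difference was -0.40 with an interval from -0.58 to -0.22 (limma, Benjamini-Hochberg adjusted p = 0.0215). A two-sided exact permutation of the line labels within hosts gave p = 0.005, the smallest that its 400 arrangements allow. With same-numbered arrays of both hosts moved together as pairs, each line has 3 pairs and the smallest exact p that 20 arrangements allow is 0.1, which Icam2, Mcam and Podxl2 all had. The difference was -0.51 ± 0.12 in KO hosts and -0.29 ± 0.12 in WT hosts (SE), and neither passed on its own (limma, adjusted p = 0.0921 and 0.307). With a random block for replicate number inside each line, Icam2 no longer passed (adjusted p = 0.0545), nor without WT_Tm1N3 replicate 2 (0.0522), WT_Tm1N3 replicate 3 (0.0515) or WT_Tm1G3 replicate 3 (0.0558). Its probe set is of the kind shared between transcripts or similar sequences, so related transcripts may add to the signal.

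Among the sialomucins, Emcn and Cd34 overlapped between lines on every count. Emcn encodes endomucin, a sialomucin of capillary and venous endothelium that limits leukocyte attachment. Its log2 level was 8.79, 9.25 and 9.66 in Tm1N3 tumours of KO hosts and 9.91, 9.19 and 9.73 in Tm1N3 tumours of WT hosts. It was 9.78, 9.19 and 8.87 in Tm1G3 tumours of KO hosts and 9.43, 8.92 and 8.98 in Tm1G3 tumours of WT hosts. The highest array was a Tm1N3 tumour of a WT host and the lowest a Tm1N3 tumour of a KO host, so the spread within the line exceeded the difference between lines. The averaged line difference was 0.23 with an interval from -0.22 to 0.67 (limma, adjusted p = 0.696).

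Cd34 encodes a sialomucin of endothelium, blood progenitors and some mesenchymal cells. It had log2 levels of 8.001, 8.59 and 9.22 in Tm1N3 tumours of KO hosts and of 8.87, 8.38 and 9.13 in Tm1N3 tumours of WT hosts. The Tm1G3 tumours had 8.92, 8.34 and 8.51 in KO hosts and 8.48, 8.16 and 8.77 in WT hosts. The lowest and the highest level were both in Tm1N3 tumours of KO hosts. The averaged line difference was 0.17 with an interval from -0.30 to 0.64 (limma, adjusted p = 0.819), and leaving out 1 array moved it between 0.016 (without KO_Tm1N3 replicate 3) and 0.32 (without KO_Tm1N3 replicate 1).

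Podxl2, also called endoglycan, is a sialomucin of the CD34 family that can bind selectins when it carries suitable glycans. It stood at 6.64, 7.03 and 6.70 in Tm1N3 tumours of KO hosts and at 6.98, 6.73 and 6.54 in Tm1N3 tumours of WT hosts. It was lower in each Tm1G3 tumour, at 6.34, 6.13 and 5.90 in KO hosts and 6.47, 6.08 and 5.76 in WT hosts. The lines did not overlap, as in 1.2% of all probe sets in this direction, and the gap between them was narrow, since the lowest Tm1N3 array had 6.54 and the highest Tm1G3 array 6.47.

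Podxl2 thus averaged 6.77 ± 0.19 in Tm1N3 tumours and 6.11 ± 0.26 in Tm1G3 tumours (SD, n = 6 each), 1.58-fold higher in Tm1N3 tumours. The log2 difference of 0.66 had an interval from 0.36 to 0.95 (limma, Benjamini-Hochberg adjusted p = 0.0211), and the exact permutation gave p = 0.005. Both hosts showed it to a like size, 0.67 ± 0.19 in KO hosts and 0.65 ± 0.19 in WT hosts (SE), although neither passed alone (limma, adjusted p = 0.169 and 0.138). The difference between these, the interaction, was 0.025 with an interval from -0.57 to 0.62. Podxl2 kept its call with that random block (adjusted p = 0.0396) and lost it without WT_Tm1N3 replicate 1 (0.0505), KO_Tm1G3 replicate 2 (0.0533) or KO_Tm1G3 replicate 3 (0.0564). Its probe set is also of the shared kind.

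Mcam, also called CD146 or MUC18, is an immunoglobulin-family adhesion protein of endothelium, pericytes and smooth muscle that melanoma cells make as well. Its log2 level was 10.15, 10.74 and 10.77 in Tm1N3 tumours of KO hosts and 10.65, 10.63 and 10.49 in Tm1N3 tumours of WT hosts. Tm1G3 tumours had 10.26, 10.02 and 9.65 in KO hosts and 10.23, 9.76 and 9.54 in WT hosts. The lines lay apart in WT hosts, and in KO hosts the lowest Tm1N3 array lay below the highest Tm1G3 array.

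The Mcam level averaged 10.57 ± 0.23 in Tm1N3 tumours and 9.91 ± 0.30 in Tm1G3 tumours (SD, n = 6 each), again 1.58-fold higher in Tm1N3 tumours. The log2 difference was 0.66 with an interval from 0.32 to 1.00 (limma, adjusted p = 0.0336; two-sided exact permutation p = 0.01). It was 0.57 ± 0.21 in KO hosts and 0.75 ± 0.21 in WT hosts (SE; limma, adjusted p = 0.367 and 0.127). This call was the least stable of the 3. It was lost with the random block for replicate number (adjusted p = 0.0674) and in 9 of the 12 fits without 1 array, remaining only without KO_Tm1N3 replicate 1, KO_Tm1G3 replicate 1 or WT_Tm1G3 replicate 1, and the adjusted p over the 12 fits ran from 0.0132 to 0.0913.

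Since pericytes and melanoma cells also make Mcam, their markers were set beside it. Of 5 listed pericyte and smooth muscle genes 2 were measured, Pdgfrb and Cspg4, and their averaged line differences were -0.0024 ± 0.14 and 0.089 ± 0.098 (SE), neither of which passed. Of 8 listed melanocytic genes only Kit, the stem cell factor receptor, was measured, and it fell in Tm1N3 tumours by 0.99 on the log2 scale (limma, adjusted p = 0.00379). Kit lay on the opposite side to Mcam, and the part of tumour cell content in the Mcam difference was not tested.

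Esm1 encodes endocan, a secreted dermatan sulfate proteoglycan that endothelial cells at the tips of growing vessels make. On its brighter probe set the log2 level was 7.68, 8.28 and 8.33 in Tm1N3 tumours of KO hosts and 8.86, 8.28 and 8.26 in Tm1N3 tumours of WT hosts. It was 8.81, 8.29 and 7.68 in Tm1G3 tumours of KO hosts and 8.21, 8.65 and 7.77 in Tm1G3 tumours of WT hosts. The lines covered nearly the same range. The averaged line difference was 0.045 with an interval from -0.45 to 0.54 (limma, adjusted p = 0.965), and it ran from -0.10 (without KO_Tm1G3 replicate 3) to 0.18 (without KO_Tm1G3 replicate 1) when 1 array was left out.

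The brighter Esm1 probe set, like those of Icam2 and Podxl2, is of the shared kind, so related transcripts may add to its signal. Its mean log2 level was 8.26, beside 5.34 on the dimmer. The dimmer Esm1 probe set gave an averaged line difference of 0.10 ± 0.16 (SE; limma, adjusted p = 0.870), also not passed. Averaged over lines, the host difference was -0.34 ± 0.16 on the dimmer and -0.16 ± 0.22 on the brighter (KO minus WT, SE). Neither passed after adjustment (limma, adjusted p = 0.749 and 0.898).

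**Figure D2:**
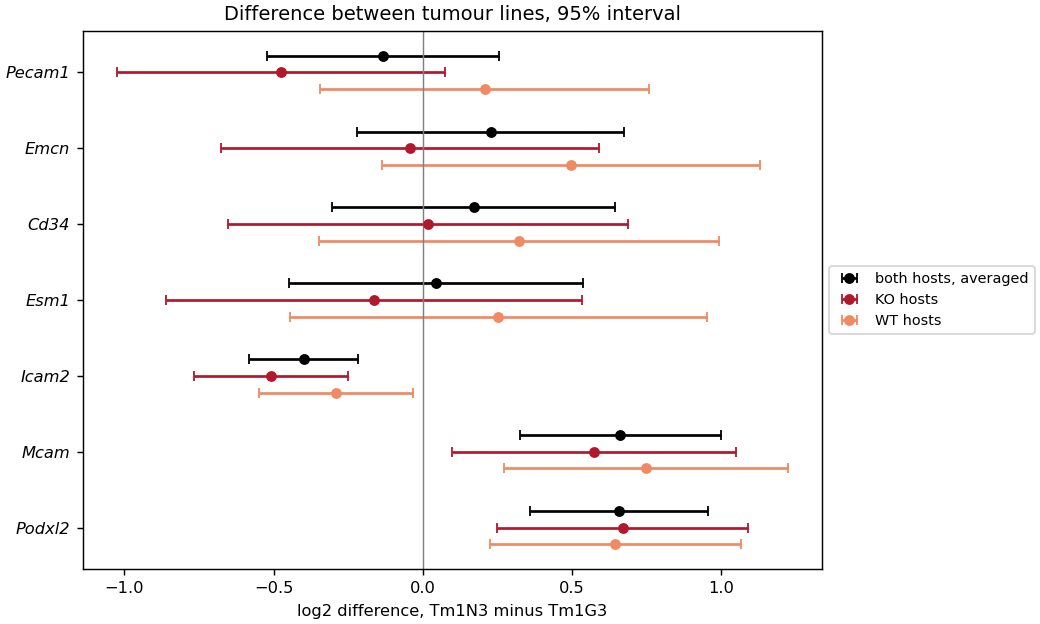
Log2 difference between tumour lines, Tm1N3 minus Tm1G3 (horizontal axis), for the 7 genes (vertical axis), averaged over hosts and in KO and WT hosts; bars are 95% intervals from limma. The averaged intervals of Icam2 (-0.58 to -0.22), Mcam (0.32 to 1.00) and Podxl2 (0.36 to 0.95) leave out 0, and those of the other 4 genes cover it.

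Within a single host no gene of the 7 passed. In KO hosts 0.722% of all probe sets passed and in WT hosts 0.883% (limma, adjusted p under 0.05). Icam2, Mcam and Podxl2 had an unadjusted p under 0.05 in each host, as 9.47% of probe sets had in KO hosts and 13.1% in WT hosts. The lines lay apart for Icam2 and Podxl2 in KO hosts and for Icam2, Mcam and Podxl2 in WT hosts, beside 13.7% and 16.9% of all probe sets. With arrays weighted by their quality, 3 of the 7 genes passed in KO hosts and 2 in WT hosts, beside 4.41% and 3.85% of all probe sets under the same weights.

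Each gene was also read relative to Pecam1 on the same array. Such a value compares a pair of probe sets and has no meaning as a level, but its change between lines shows unequal change. Relative to Pecam1, Emcn lay between 0.82 and 1.16 in Tm1N3 tumours and between 0.24 and 0.85 in Tm1G3 tumours. The difference of 0.36 between lines passed (two-sided exact permutation within hosts, p = 0.005, Benjamini-Hochberg adjusted over the 6 genes to 0.015), and it passed in all 12 repeats without 1 array. Emcn thus passed relative to Pecam1, although neither gene passed by itself. With same-numbered arrays moved together as pairs no call is possible, since the exact p cannot go below 0.1, the value that Emcn, Mcam, Podxl2 and Icam2 each had (adjusted p = 0.15).

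Mcam and Podxl2 passed relative to Pecam1 too, by the same unpaired permutation. The differences were 0.80 for Mcam (exact permutation p = 0.005, adjusted 0.015) and 0.79 for Podxl2 (p = 0.01, adjusted 0.02), and the Podxl2 call reached an adjusted p of 0.05 and so failed without any 1 of the 3 KO_Tm1G3 arrays. Cd34 was at 0.31 and missed the threshold (exact p = 0.035, adjusted 0.0525), passing without WT_Tm1N3 replicate 2 or WT_Tm1G3 replicate 3. Esm1 was at 0.18 (exact p = 0.42). Icam2, whose own level passed, was at -0.27 relative to Pecam1 and did not pass (exact p = 0.095, adjusted 0.114), though it did without KO_Tm1N3 replicate 1 (-0.36, adjusted p = 0.03). An Icam2 change beyond that of Pecam1 was therefore not shown on all 12 arrays. Each value relative to Pecam1 also holds the line difference of Pecam1 itself, -0.13. The share of all probe sets that would pass relative to Pecam1 was not counted, so these calls cannot be read as particular to these genes.

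**Figure D3:**
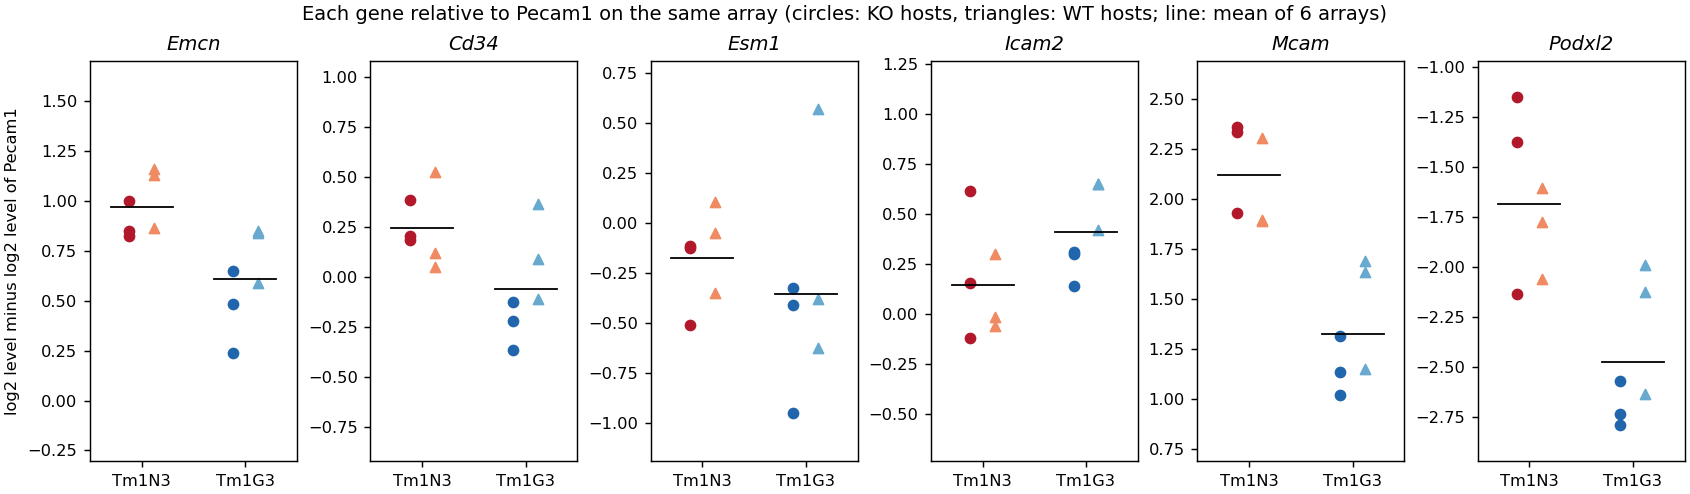
Log2 level minus that of Pecam1 on the same array (vertical axes) for the other 6 genes, in Tm1N3 and Tm1G3 tumours (horizontal axes); circles are KO hosts, triangles WT hosts and lines the mean of 6 arrays. Emcn, Mcam and Podxl2 lie higher in Tm1N3 tumours, and only in Mcam do all 6 arrays of one line lie above those of the other.

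Host genotype moved none of the 7 genes past the threshold. Averaged over lines, the differences (KO minus WT) ran from -0.16 for Esm1 to 0.13 for Pecam1 (limma, smallest adjusted p = 0.897), and no probe set of the 1246 passed (0% of all, with 6.26% at an unadjusted p under 0.05). Among the 7 genes 0 had an unadjusted p under 0.05. The intervals were wide for the variable genes, from -0.26 to 0.51 for Pecam1 and from -0.55 to 0.34 for Emcn, and narrow for Icam2, from -0.15 to 0.22.

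The sign of the host difference depended on the line for most genes, without passing a test. In Tm1N3 tumours 6 of the 7 were lower in KO hosts, from -0.38 for Emcn to -0.040 for Mcam, with Podxl2 at 0.044, beside 43.9% of all probe sets with a positive difference. In Tm1G3 tumours all 7 were higher in KO hosts on their brightest probe sets, from 0.020 for Podxl2 to 0.47 for Pecam1. Of all probe sets 47% had a positive difference there. Of these 7 signs 5 turned when 1 array was left out, Emcn to -0.085 and Esm1 to -0.22 without KO_Tm1G3 replicate 1, Cd34 to -0.046 without the same array, and Mcam to -0.015 and Podxl2 to -0.15 without WT_Tm1G3 replicate 3. In either line 0 of 7 passed, as did 0% of all probe sets (limma, adjusted p under 0.05). An unadjusted p under 0.05 was met by 0 of 7 in either line, beside 4.33% of all probe sets in Tm1N3 tumours and 6.18% in Tm1G3 tumours. The dimmer Esm1 probe set was at -0.17 in Tm1G3 tumours, opposite in sign to the brighter. In Tm1N3 tumours it was at -0.51 (limma, unadjusted p = 0.0472) and did not pass after adjustment. In Tm1G3 tumours the Pecam1 levels of 8.63 to 9.13 in KO hosts lay apart from those of 8.07 to 8.59 in WT hosts, as they did for 12.4% of probe sets, and the unadjusted p was 0.0877 (limma).

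The interaction, the line difference in KO hosts minus that in WT hosts, was negative for the same 6 genes and largest for Pecam1, at -0.68 ± 0.35 (SE) with an interval from -1.46 to 0.094. None of the 7 passed (limma, adjusted p = 0.996 for each), and 0% of all probe sets did. At an unadjusted p under 0.05 there were 0 of 7 and 2.81% of all probe sets, and 48.3% of all had a positive interaction. The 6 genes were read on the same arrays and some of their levels were correlated, so a shared sign over 6 genes is not 6 separate observations. In Tm1N3 tumours most signs rested on KO_Tm1N3 replicate 1, without which the host difference was 0.061 for Pecam1, 0.11 for Cd34, 0.0045 for Icam2 and 0.16 for Mcam, and remained negative for Emcn and Esm1.

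**Figure D4:**
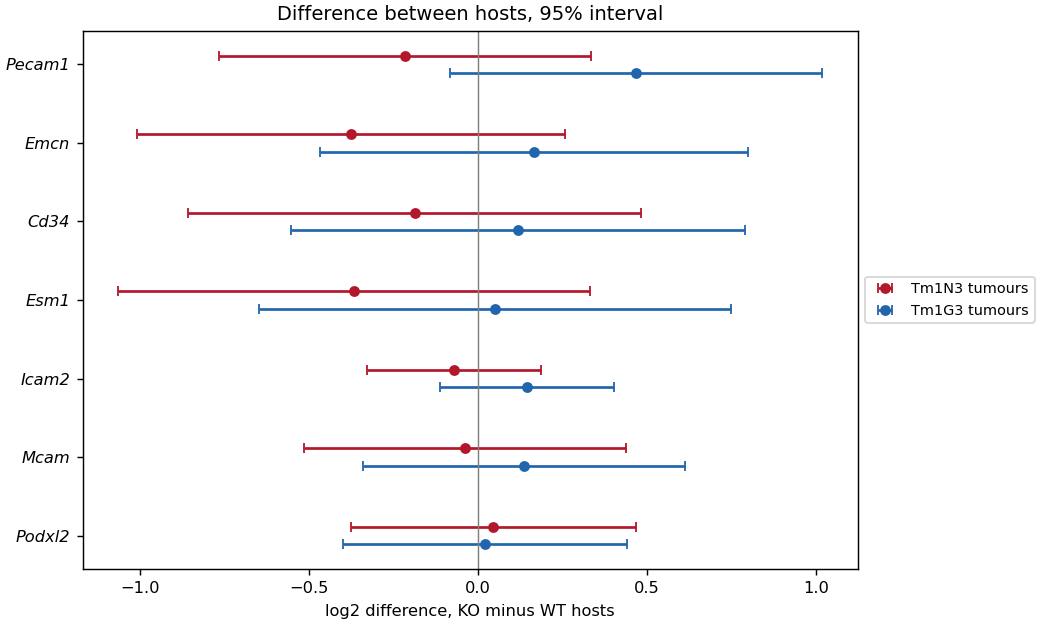
Log2 difference between hosts, KO minus WT (horizontal axis), for the 7 genes (vertical axis) in Tm1N3 and in Tm1G3 tumours; bars are 95% intervals from limma. Every interval covers 0, and the Tm1G3 values lie to the right of the Tm1N3 values for all genes but Podxl2.

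Of the 21 pairs of genes 4 passed a test of correlation within groups, namely Pecam1 with Emcn, Cd34 and Icam2, and Mcam with Podxl2. How many pairs of all probe sets would pass the same test was not counted, so 4 of 21 cannot be called particular to these genes. After group means were removed, 20 of the 21 pairs had a positive correlation over the 12 arrays, with a median Pearson r of 0.69, beside 51.1% of pairs and a median of 0.013 over all 1246 probe sets. The 1246 include dim probe sets, and pairs of like mean level were not counted. This gap therefore cannot be called particular to these genes either. Esm1 passed with none of the other 6. Pecam1 and Emcn were closest, with r = 0.917 and Spearman rho = 0.937 (exact permutation within groups, p = 0.000772 for each, the smallest that the arrangements allow, and 0.0162 adjusted over the 21 pairs). Without the 2 arrays farthest from the Pecam1 median r was 0.925. The permutations, here and for the pairs below, moved each array by itself within its group. Same-numbered arrays of the 2 hosts were not kept together, so the p-values may be too small.

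Pecam1 also went with Cd34 (r = 0.889, rho = 0.832, exact permutation p = 0.00926 and 0.0100) and with Icam2 (r = 0.860, rho = 0.902, exact permutation p = 0.00772 and 0.00617). Mcam went with Podxl2 (r = 0.820, rho = 0.790, exact permutation p = 0.00926 and 0.0201). Without the 2 farthest arrays these were 0.752, 0.847 and 0.828. For these 3 pairs r passed narrowly (adjusted p = 0.0486) and rho did not (0.0527), and r no longer passed with each array centred on its median (0.0891). Without 1 array the call held in 2 of 12 repeats for Pecam1 with Cd34, in 3 for Pecam1 with Icam2 and in 4 for Mcam with Podxl2, against 12 for Pecam1 with Emcn, and the adjusted p for Pecam1 with Cd34 reached 0.175. Cd34 and Podxl2, members of 1 protein family, had r = -0.016 (rho = -0.042, exact permutation p = 0.967 for r). Emcn and Cd34 each went with Pecam1, while r between the pair, 0.770 (rho = 0.825, exact permutation p = 0.0208 and 0.0147), did not pass (adjusted p = 0.0547 for r).

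**Figure D5:**
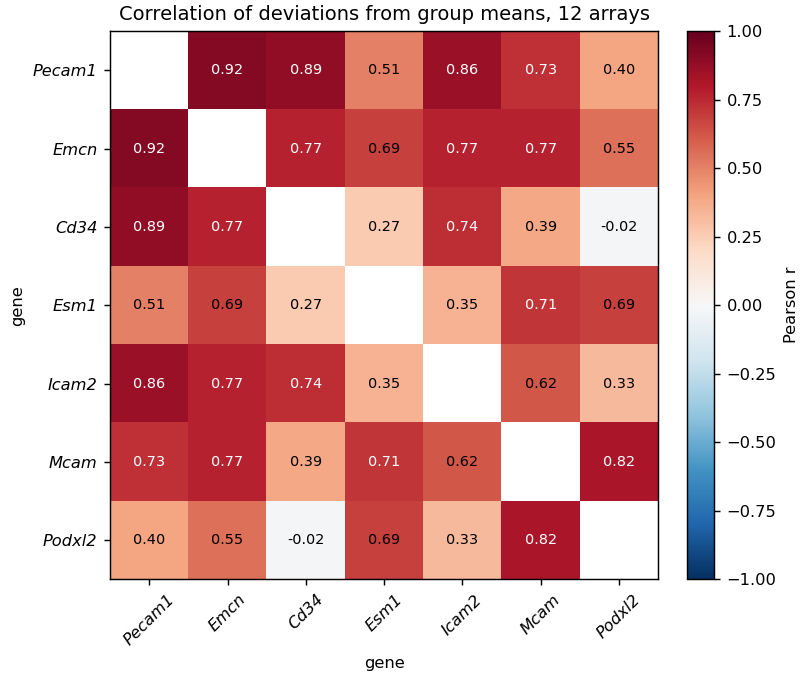
Pearson r between genes (both axes) of deviations from group means over 12 arrays; red is positive and blue negative. Pecam1 with Emcn is highest at 0.917, and Cd34 with Podxl2 is at -0.016.

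The named genes most like each of the 7 over the 12 arrays were looked up among 722 others above the lowest 25% of mean level, by Pearson r of levels, given as a description. Pecam1 was most like Cd93 (r = 0.917), a lectin-like receptor of endothelium, Notch1 (0.901), a receptor active in vessel sprouting, and Thbd (0.899), the endothelial anticoagulant receptor thrombomodulin. Emcn was most like Igfbp7 (0.893), a secreted protein found in tumour vessels, Cd93 (0.886) and the Notch ligand gene Jag2 (0.840). Esm1 was most like Acvrl1 (0.815), an endothelial receptor of the TGF-beta family, followed by Bsg (0.743) and Glce (0.734). With group means removed the Pecam1 and Cd93 levels had r = 0.985 over the 12 arrays.

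Cd34 had other neighbours, Cd248 (0.952), the endosialin gene of stromal cells and pericytes, Il1r1 (0.929), an interleukin-1 receptor, and Papss2 (0.895), an enzyme that makes the sulfate donor. Icam2 was most like Il12rb1 (0.946), an interleukin receptor chain of lymphocytes, Kit (0.871) and Havcr2 (0.869), which encodes TIM-3, an inhibitory receptor of leukocytes, and all 3 passed lower in Tm1N3 tumours as Icam2 did. With group means removed these 3 had r = 0.816, 0.512 and 0.359 with Icam2. Mcam was most like Podxl2 (0.934), Hyal2 (0.930) and Manba (0.923). Podxl2 was most like the fucosyltransferase gene Fut11 (0.950), Ovgp1 (0.938) and Idua (0.937). For Icam2, Mcam and Podxl2 such an r holds the difference between lines as well as the spread within groups.

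Promoter windows show how the pair that rose, Mcam and Podxl2, differs in base composition from the vessel sialomucin genes Emcn and Cd34. RefSeq windows of GRCm38.p6, 250 bases before to 50 after the annotated start, were found for 5 of the 7 genes, these 4 and Esm1. The windows are chr9:44134408-44134707 (plus strand) for Mcam, chr6:88874997-88875296 (minus strand) for Podxl2, chr3:137340828-137341127 (plus strand) for Emcn and chr1:194938571-194938870 (plus strand) for Cd34. They are written from 5′ to 3′ of the gene, and capitals mark GGGCGG (the GC box), TGACGTCA (the cyclic AMP response element) and AGGAAG (an ETS-type site), each searched on both strands.
Mcam: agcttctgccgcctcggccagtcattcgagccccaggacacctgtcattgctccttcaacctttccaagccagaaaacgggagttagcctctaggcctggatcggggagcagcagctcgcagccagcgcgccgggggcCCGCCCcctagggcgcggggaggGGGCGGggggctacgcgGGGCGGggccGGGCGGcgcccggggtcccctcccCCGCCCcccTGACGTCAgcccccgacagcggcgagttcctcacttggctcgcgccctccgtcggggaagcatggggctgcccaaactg
Podxl2: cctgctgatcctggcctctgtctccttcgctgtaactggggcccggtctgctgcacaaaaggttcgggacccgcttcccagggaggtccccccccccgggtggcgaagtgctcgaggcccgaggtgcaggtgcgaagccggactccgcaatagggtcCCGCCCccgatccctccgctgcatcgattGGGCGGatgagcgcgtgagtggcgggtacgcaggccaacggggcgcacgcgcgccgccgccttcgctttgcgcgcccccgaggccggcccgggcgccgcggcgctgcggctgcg
Emcn: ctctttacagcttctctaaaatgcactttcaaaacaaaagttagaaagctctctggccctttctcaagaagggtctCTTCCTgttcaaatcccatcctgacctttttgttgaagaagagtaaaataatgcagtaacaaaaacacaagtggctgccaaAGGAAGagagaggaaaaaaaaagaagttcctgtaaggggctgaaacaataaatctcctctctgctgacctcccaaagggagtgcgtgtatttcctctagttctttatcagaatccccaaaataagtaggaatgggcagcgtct
Cd34: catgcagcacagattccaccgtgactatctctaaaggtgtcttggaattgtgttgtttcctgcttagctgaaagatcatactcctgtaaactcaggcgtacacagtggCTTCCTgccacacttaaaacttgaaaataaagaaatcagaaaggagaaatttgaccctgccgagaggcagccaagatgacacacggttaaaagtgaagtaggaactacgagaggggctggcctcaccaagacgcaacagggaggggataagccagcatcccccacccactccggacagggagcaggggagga

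The Mcam window held 72.7% G and C and 29 CpG, and the Podxl2 window 73.3% and 39, against medians of 52.7% and 7 over 32817 windows. Emcn had 41.0% and 2 CpG, Esm1 46.3% and 5, and Cd34 50% and 7. GGGCGG occurred 5 times for Mcam, 2 times for Podxl2 and not in the other 3 windows, and 35.6% of all windows hold it. TGACGTCA occurred once, in the Mcam window, beside 1.79% of all windows. AGGAAG occurred 2 times for Emcn and 1 time for Cd34 and not in the other 3, beside 35.4% of all windows. Such matches describe letters in these windows and name no bound site.

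The partners of these genes were counted from fixed lists in the comparison of lines averaged over hosts. Of 10 selectins and selectin-binding sialomucins 8 were measured and none passed, with a median difference of 0.012. The sialomucin gene Cd164 was at -0.070 ± 0.077 (SE), Madcam1 at 0.057 ± 0.075 and Glycam1 at -0.057 ± 0.048. Sele and Selp, the endothelial selectins, were at 0.041 ± 0.053 and -0.0042 ± 0.069. Group mean log2 levels ran from 3.25 to 3.42 for Sele and from 3.38 to 3.46 for Glycam1. Both genes lay below 4.22, the bound of the dim probe sets removed in an alternative fit. Their small differences and SEs therefore cannot show that expression was unchanged. Selp lay above that bound, with group means from 5.15 to 5.24.

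All 14 listed enzymes that build or sulfate selectin-binding glycans were measured, of which 2 passed, both lower in Tm1N3 tumours, beside 2.97% of all probe sets. These were the sialyltransferase gene St3gal3, at -0.41 ± 0.088, and B3gnt3, which extends O-glycans with N-acetylglucosamine, at -0.27 ± 0.060 (SE; limma, adjusted p = 0.0235 and 0.0299). The other 12, the selectin ligand fucosyltransferase genes Fut4 (0.0091 ± 0.044) and Fut7 (-0.048 ± 0.051) among them, did not pass, and the list's median was -0.058 beside 0.0027 over all probe sets.

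Of 13 other immunoglobulin adhesion genes 3 were measured and none passed. L1cam was at -0.74 ± 0.26, Icam1 at -0.26 ± 0.18 and Vcam1 at -0.064 ± 0.33 (SE; limma, smallest adjusted p = 0.171). Of 21 listed endothelial receptor and junction genes only Thbd was measured, at -0.13 ± 0.19, so that general vessel content rests here on few listed genes. Outside the list, Cd93 was at 0.050, Notch1 at -0.046, Acvrl1 at -0.058 and Igfbp7 at 0.24, none of which passed (limma, adjusted p from 0.716 to 0.953). These genes were picked for likeness to Pecam1, Emcn or Esm1, so they are no separate reading of vessel content. Among 17 listed symbols of angiogenic factors, of which Figf is an older name of Vegfd, 14 were measured. Angptl2 passed higher in Tm1N3 tumours (0.46 ± 0.070) and Fgf1 lower (-0.53 ± 0.090). Of all probe sets 1.28% passed higher and 2.97% lower. The other 12 missed the threshold, Vegfa at 0.49 ± 0.16 (adjusted p = 0.124) among them. None of 10 listed integrin genes was found among the named probe sets.

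Markers of other cells in these tumours were sparse on the array. The 2 leukocyte markers measured of 10, Adgre1 and Csf1r of macrophages, were at -0.54 ± 0.43 and -0.37 ± 0.38 (SE), on the same side as Icam2, and did not pass. Their levels ran from 5.07 to 6.90 for Adgre1 and from 6.55 to 8.55 for Csf1r in Tm1N3 tumours of KO hosts, and from 5.51 to 6.63 and from 6.93 to 8.30 in Tm1N3 tumours of WT hosts. In Tm1G3 tumours the ranges were 5.87 to 6.25 and 7.45 to 7.92 in KO hosts, and 5.59 to 7.98 and 7.16 to 8.50 in WT hosts. The platelet genes Pf4 and Ppbp, 2 of 5 listed, were at -0.063 ± 0.51 and -0.062 ± 0.75, and the fibroblast genes Dcn and Pdgfra, 2 of 8 listed, at -0.51 ± 0.47 and 0.057 ± 0.37. The part of leukocytes in the Icam2 difference was not tested.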

How the data were processed

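Biotin-labelled cRNA of 12 samples was hybridised to Affymetrix arrays, per the labels' protocols. The authors deposited log2 levels of 1246 probe sets made with RMA, per the submitters' processing notes. The sources used here give no RMA version. The levels ran from 2.14 to 13.9, with array medians within 0.0945 of each other, and were used unchanged. Background could not be examined, as no scanner files were used here. Unversioned RefSeq accessions named 963 probe sets, for 909 symbols of GRCm38.p6.

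Group means over 12 arrays were fitted with limma 3.58.1 (R 4.3.3), giving 7 comparisons adjusted by the Benjamini-Hochberg method over 1246 probe sets at a threshold of 0.05. Differences carry limma's SE or 95% interval and are Tm1N3 minus Tm1G3 or KO minus WT. Permutations were exact, of line labels within hosts (400 arrangements), of same-numbered pairs between lines (20 arrangements, added after seeing the data) or of arrays within groups. The fit was first tested on simulated data.

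Named genes are the 7, Lgals3, the 3 most like each, and of each list those that passed or up to 4 with the largest averaged line difference; Sele, Selp, Fut4, Fut7 and Thbd were named for their role, and 1 gene of a list is not reported here. The genes and lists were chosen with earlier results of these data known. Same-numbered arrays of the 2 hosts deviated together over all probe sets within a line, with correlations from 0.184 to 0.752 for Tm1N3 and from 0.249 to 0.308 for Tm1G3. By the rule that each exceed 0.1 they were treated as pairs, but only in alternative fits and permutations. The main limma fit, with its SE and intervals, held no pairing. Within each group the replicate numbers follow the order of the sample numbers in the titles. The labels do not say that a shared replicate number marks a shared batch or day, so these pairs rest on the correlations alone. Between lines correlations ran from -0.660 to 0.544, so lines were not paired. Alternatives covered scaling, low levels, spread, array weights, blocks, probe sets and each array left out.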

Additional observations from a re-analysis of the deposited data

How the results depend on the processing

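The averaged line differences of Icam2, Mcam and Podxl2 kept their sign in all 21 alternatives each and passed under renewed quantile normalization, median centring, removal of dim probe sets, both other estimates of spread and array weights. Of the 7 genes, 3 passed in all of these, whereas 1 did with a random block for replicate number inside each line (Icam2 at -0.40 and Mcam at 0.66, neither passing) and 2 with replicate number as a block over all groups (Mcam at 0.66 with an adjusted p of 0.0572). These blocks changed no other limma call of the 7 genes. The permutation with same-numbered arrays as pairs, chosen after seeing the data, cannot give a p below 0.1, so it could call none of the differences, Emcn, Mcam and Podxl2 relative to Pecam1 included. With array weights 3 of the 7 passed in KO and 2 in WT hosts, against 0 with equal weights, while calls over all probe sets numbered 55 and 48, against 9 and 11. Renewed quantile normalization gave 29 calls higher and 28 lower in that comparison over all probe sets, against 16 and 37 on the deposited values, and array weights gave 131 calls in place of 53.

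Without 1 array the number of genes passing ran from 1 to 3, and the averaged line difference from -0.45 to -0.35 for Icam2, from 0.58 to 0.76 for Mcam, from 0.57 to 0.75 for Podxl2, from -0.26 to 0.0038 for Pecam1 and from -0.10 to 0.18 for Esm1. Line differences in KO hosts ran from -0.26 to 0.21 for Emcn, from -0.45 to 0.11 for Esm1 and from -0.29 to 0.32 for Cd34. Averaged host differences ran from -0.23 to 0.0061 for Emcn, from -0.19 to 0.12 for Cd34, from -0.016 to 0.074 for Icam2, from -0.028 to 0.15 for Mcam and from -0.053 to 0.12 for Podxl2. In Tm1N3 tumours host differences ran from -0.46 to 0.061 for Pecam1, from -0.50 to 0.11 for Cd34, from -0.15 to 0.0045 for Icam2, from -0.15 to 0.16 for Mcam and from -0.075 to 0.16 for Podxl2. In Tm1G3 tumours they ran from -0.085 to 0.37 for Emcn, from -0.22 to 0.34 for Esm1, from -0.046 to 0.27 for Cd34, from -0.015 to 0.33 for Mcam and from -0.15 to 0.20 for Podxl2. The interaction ran from -0.37 to 0.027 for Mcam and from -0.16 to 0.20 for Podxl2, and r of Cd34 with Podxl2 from -0.23 to 0.21. None of the differences that changed sign had passed a test.

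Array weights turned the Emcn line difference in KO hosts to 0.042, the Mcam host difference in Tm1N3 tumours to 0.027 and the Esm1 host difference in Tm1G3 tumours to -0.073. The last was -0.013 after renewed quantile normalization and -0.061 on the mean of both Esm1 probe sets. The cause of these changes was not tested. With 3 arrays a group, intervals of the averaged line difference reached 0.49 to either side for Esm1 and 0.18 for Icam2.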

Other observations

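The leading component of deviations from group means over the other 1238 probe sets held 51.1% of their variance, and it was set beside the 7 genes after their values had been seen. Over the 12 arrays it went with Pecam1 (r = 0.874, rho = 0.846, exact permutation within groups p = 0.0100 and 0.00926), Emcn (r = 0.817, rho = 0.839, exact p = 0.00694 and 0.00540) and Cd34 (r = 0.836, rho = 0.895, exact p = 0.0162 and 0.00309), each with an adjusted p of at most 0.0378 for r over the 7 genes. Without the 2 arrays farthest along it, r was 0.798, 0.755 and 0.873. Same-numbered arrays were not kept together in these permutations either, so the p-values may be too small. Podxl2 (r = 0.209, rho = 0.084, exact p = 0.576 and 0.840) and Esm1 (r = 0.269, rho = 0.140, exact p = 0.428 and 0.687) did not pass. Icam2 was between, at r = 0.710 (exact p = 0.0455, adjusted 0.0797) and rho = 0.748 (exact p = 0.0170, adjusted 0.0297), as was Mcam at r = 0.629 and rho = 0.545 (exact p = 0.115 and 0.155). The share of all probe sets that would pass the same test was not counted, so going with this component cannot be called particular to these genes.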
